A study of Mus musculus with 4 samples.

Results

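The MYC, MAX and MXD network is a set of basic helix-loop-helix transcription factors built around the shared dimer partner MAX and its relative MLX. Its members were chosen as 10 listed gene symbols (Myc, Max, Mxd1, Mxd3, Mxd4, Mxi1, Mnt, Mga, Mlx and Tfap4). All 10 were among the 16142 genes of the expression table, and 9 passed the filter on low values (1 FPKM or more on average over the libraries) and were tested among 9831 genes. Mxd3 did not pass it.

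MYC dimerises with MAX, binds E-box DNA and raises transcription of genes of cell growth, metabolism and division, and in T cells it is induced by stimulation of the antigen receptor. MXD1, MXD3, MXD4, MXI1 (also known as MXD2) and MNT compete with MYC for MAX at the same E-boxes and recruit SIN3 and histone deacetylases, so that the network is often described as a balance between MYC and these repressors. MGA is a further MAX partner that works with polycomb proteins, MLX pairs with MondoA (encoded by Mlxip) and with some of the repressors, and TFAP4 is a helix-loop-helix factor encoded by a target gene of MYC.

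The study compared splenic CD4+ T cells that express R111A, a mutant of the RNase Regnase-1 (encoded by Zc3h12a) that the protease MALT1 cannot cleave, with WT cells. RNA-seq of polyA RNA was available for 2 WT and 2 R111A libraries. Every library came from spleen cells that were enriched by a bead kit for untouched CD4+ T cells and FACS sorted. The sorted cells were then kept for 12 h with antibodies to CD3 (5 µg/mL) and CD28 (1 µg/mL). These antibodies stimulate the antigen receptor and a costimulatory receptor. Unstimulated cells were not analysed here.

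WT cells came from B6 mice. R111A cells came from Cd4CreERT2 LSL-R111A fl/fl mice injected i.p. with tamoxifen over 5 days (75 mg/kg), in which Cre driven by Cd4 removes a STOP cassette so that a CAG promoter at Rosa26 drives the mutant together with EGFP. The mutant is thus added to the endogenous gene and not placed under its control. The protocol of these libraries names tamoxifen after both genotypes without saying separately whether the WT mice received it, and WT mice given tamoxifen served as controls for sorted T cells elsewhere in the study. Mice were of both sexes and 6 to 12 weeks old in general, and the age and sex behind each library are not given in the sources used here. Nor is it given whether the libraries of a group came from separate mice, so the p-values measure only the spread between these samples, which may be technical.

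Zc3h12a was read first as a check of the labels. Its level was 17.0 and 15.7 FPKM (sequenced fragments scaled by transcript length and by the size of the library) in WT replicates 1 and 2, and 196 and 131 FPKM in R111A replicates 1 and 2. Both R111A libraries were far above both WT libraries, with a log2 fold change of 3.22 (SE 0.19, adjusted p = 9.2e-06), in the direction of the labels. Here and throughout, fold changes are R111A minus WT on the scale of log2(FPKM + 1), which understates the change of genes with low values.

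The 8 markers of CD4+ T cells summed to 1806 and 1823 FPKM in WT and to 1761 and 1907 FPKM in R111A. The most abundant was Cd3g in both WT libraries (454 and 465 FPKM) and Cd69 in both R111A libraries (454 and 651 FPKM). At an adjusted p under 0.05, R111A was higher for 2 of these 8 genes and lower for 3, shares near those of all 9831 genes tested (21.2% higher and 32.1% lower). Cd4 itself was lower, at 158 and 131 FPKM in WT and 70.7 and 51.4 FPKM in R111A. Markers of other cells summed to far less than these in every library but differed between the groups. In R111A, the myeloid, NK and erythroid sums were above the levels of Mxd1 and Mxi1 given below, and under that of Mxd4. The 5 B cell markers summed to 2.13 and 0.95 FPKM in WT and 5.13 and 4.49 FPKM in R111A (Cd79a was 0.32 and 0.24 FPKM in WT and 2.99 and 2.37 FPKM in R111A, and Ms4a1 and Pax5 were at or under 0.23 FPKM in every library). The 5 myeloid markers summed to 2.06 and 0.90 against 13.3 and 10.7 FPKM, led by Cd68. Of the others, Lyz2 was at 0.45 and 0.00 against 3.01 and 2.37 FPKM, Adgre1 at 0.04 and 0.04 against 0.77 and 1.04 FPKM and Itgam at 0.00 and 0.03 against 0.54 and 0.39 FPKM, and Csf1r was at or under 0.07 FPKM. The 3 NK cell markers summed to 1.05 and 0.42 against 12.5 and 13.9 FPKM, led by Klrd1, which T cells can also express, with Ncr1 at or under 0.30 FPKM. The 5 erythroid markers summed to 0.66 and 0.70 against 12.8 and 12.9 FPKM, led by Hba-a1, with Hba-a2 and Hbb-bs listed at 0. The 2 CD8 markers had lower sums in R111A (7.31 and 6.76 against 3.88 and 4.46 FPKM, led by Cd8b1, with Cd8a at or under 0.20 FPKM), as did the 2 Treg markers (15.8 and 13.1 against 5.21 and 6.22 FPKM). Of the latter, Foxp3 was lower in R111A (11.3 and 8.78 against 2.86 and 1.86 FPKM), and Ikzf2 overlapped between the groups (4.50 and 4.34 against 2.35 and 4.36 FPKM). Beads and a sort for CD4+ T cells came before stimulation in both groups, and the study's sorting methods add a gate on GFP for mice that carry it. Whether the transcripts of other cell types came from such cells was not tested, nor was their part in the differences given next. In bulk samples, fewer cells of a type and less RNA per cell cannot be told apart.

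The E-box that the network binds, CACGTG, was looked for in the promoters of the members, because the members are both regulators and possible targets of such sites. RefSeq promoter sequences (GRCm38.p6, 250 bases before to 50 bases after a transcript start) were held for 8 members, and for Myc and Tfap4 no entry was used. The motif reads the same on both strands. It was present in 4 of the 8 members, Max, Mxd4, Mnt and Mlx, beside 8.09% of all 27025 genes with such a promoter and 12.5% (1003 of 8041) of the genes tested. Each match is shown with 12 bases on either side, 5′ to 3′ on the strand of the gene, with the E-box in capitals.
Max: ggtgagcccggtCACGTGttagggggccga
Mxd4: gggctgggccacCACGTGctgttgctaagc
Mnt: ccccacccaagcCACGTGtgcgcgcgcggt
Mlx: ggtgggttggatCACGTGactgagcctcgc
These lie at chr12:76962234-76962263 (minus strand) for Max, chr5:34187912-34187941 (minus strand) for Mxd4, chr11:74830789-74830818 (plus strand) for Mnt and chr11:101087238-101087267 (plus strand) for Mlx. Counted to the transcript start on which each promoter entry is built, the E-box begins 3 bases before it in Max, 219 in Mxd4, 123 in Mnt and 40 in Mlx. RefSeq gene spans, given with each gene in later paragraphs, reach further upstream than that start for Max and Mlx, whose stretches lie inside the span, and for Mnt, whose stretch crosses its outer end. None of the 4 stretches overlaps an exon of the GENCODE vM21 annotation. A match is a description of the sequence and does not show that a protein binds there. No CACGTG was in the windows of Mxd1, Mxd3, Mxi1 (3 windows) or Mga. The related CACGCG, read on both strands, was in 1 of the 8 members, Mga, beside 21.3% of the genes tested.

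Myc, its partner Max, Tfap4 and Mlx were lower in R111A cells, and the MAX-binding repressors Mxd1, Mxd4 and Mxi1 were higher. These 7 directions held under every scaling tried, although Max did not pass the test under 2 of them. At an adjusted p under 0.05, 3 of the 9 members tested were higher and 4 were lower, where 21.2% and 32.1% of all 9831 genes were. With a 2-fold change required as well, 1 member was higher (Mxd4) and 2 were lower (Myc and Tfap4), beside 8.52% and 8.34% of all genes. The count of 2 was 0 after division by median-of-ratios factors and 0 without R111A replicate 2. Both R111A libraries lay above both WT libraries for 4 members and below both for 4, beside 32.0% and 46.3% of all genes. The share of genes called was thus large across the whole table, and nothing particular to the network is read from these counts. The median log2 fold change of the 9 members, which went both ways, was 0.26, beside -0.12 for all genes tested. It depended on single libraries and on scale: it was 0.34 without WT replicate 1, 0.18 without WT replicate 2, 0.04 without R111A replicate 1 and 0.11 without R111A replicate 2, and on the TPM scale it was -0.04, beside -0.42 for all genes.

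**Figure D1:**
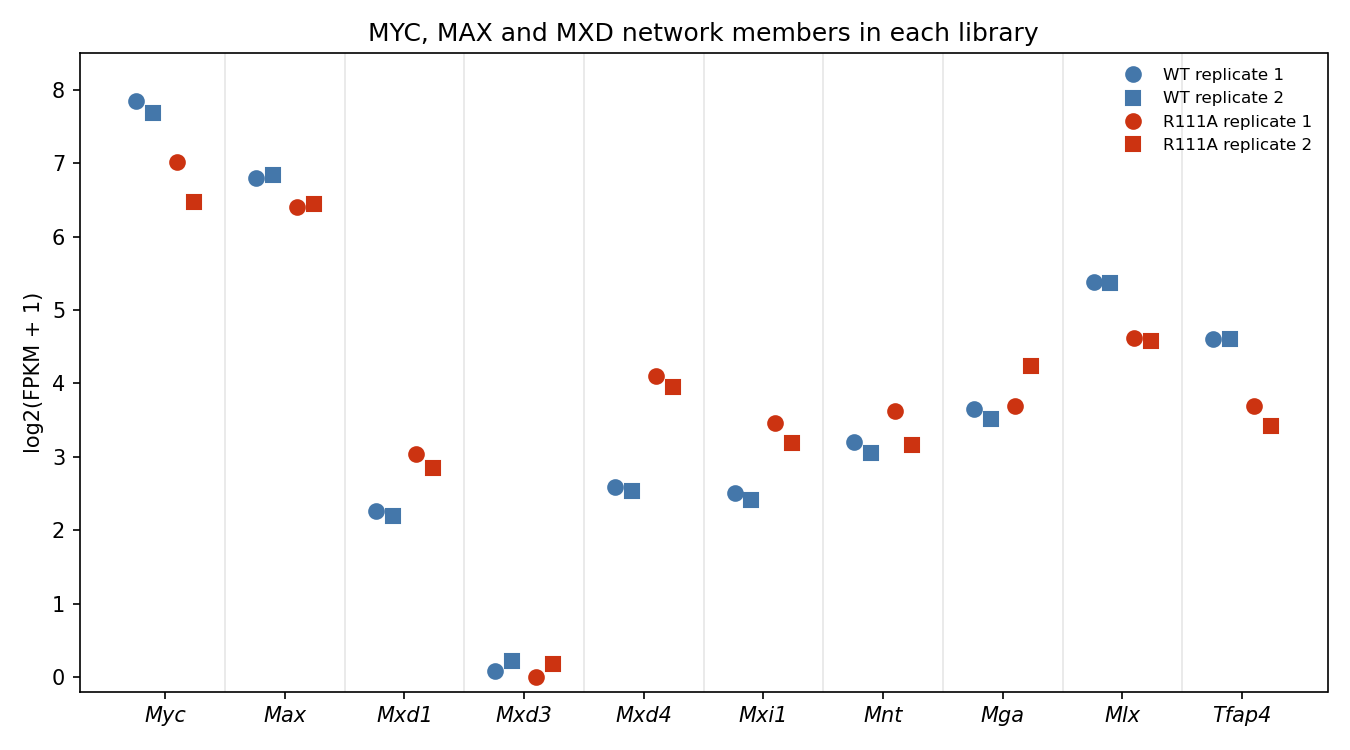
Level of each member as log2(FPKM + 1) in the 2 WT (blue) and 2 R111A (red) libraries, with replicate 1 as circles and replicate 2 as squares. Myc, Max, Mlx and Tfap4 lie lower in both R111A libraries, Mxd1, Mxd4, Mxi1 and Mga lie higher, and Mnt and Mxd3 overlap.

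Myc, the activating member, stood at 228 and 204 FPKM in WT, against 128 and 87.6 FPKM in R111A. Both R111A libraries were below both WT libraries, and R111A replicate 2 was the lowest, with the R111A pair further apart (1.46 times) than the WT pair (1.12 times). Its log2 fold change was -1.02 (SE 0.18, adjusted p = 0.0019). That value sat at the 2-fold threshold: it was -0.89 (adjusted p = 0.0046) after division by median-of-ratios factors, and -0.75 (adjusted p = 0.0032) without R111A replicate 2. Of the genes tested, 8.06% had a lower log2 fold change than Myc. Its gene (NCBI gene 17869) spans chr15:61985341-61990361 in GRCm38.p6.

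Max, the partner that MYC and the repressors share, was at 110.6 and 113 FPKM in WT, against 83.4 and 85.95 FPKM in R111A. The replicates were close to each other (within 1.03 times in R111A), and the groups did not overlap. The log2 fold change was -0.40 (SE 0.12, adjusted p = 0.023), which is small beside that of Myc. It did not pass the threshold after median-of-ratios division (-0.27, adjusted p = 0.1), after quantile normalization (-0.17, adjusted p = 0.26), or without WT replicate 1 (adjusted p = 0.22) or WT replicate 2 (adjusted p = 0.27). Of the genes tested, 32.5% had a lower log2 fold change than Max. The gene (NCBI gene 17187) spans chr12:76937269-76962323.

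Among the repressors of the MXD family, Mxd4 had the largest change, which was also the largest of any member on the deposited scale but not on the TPM scale, where Tfap4 (-1.36) and Myc (-1.35) exceeded it in size (1.16). It was at 5.05 and 4.80 FPKM in WT and 16.2 and 14.4 FPKM in R111A. Each R111A library exceeded each WT library, and the means differed 3.11-fold. The log2 fold change was 1.46 (SE 0.14, adjusted p = 7.5e-05), and 95.5% of the genes tested had a lower one. Mxd4 (NCBI gene 17122, chr5:34176580-34187710) overlaps the gene model Gm42846 on the opposite strand, and whether strand was used in counting is not given in the sources used here.

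Mxi1, a repressor of the same family, was at 4.68 and 4.32 FPKM in WT and 9.99 and 8.16 FPKM in R111A. All R111A values were above all WT values, and the ratio of the means was 2.02. On the log2(FPKM + 1) scale the change was 0.87 (SE 0.15, adjusted p = 0.0017), under the 2-fold threshold. Mxi1 (NCBI gene 17859, chr19:53310128-53373293) overlaps Gm10197 on the opposite strand. Mxd1, the family member first described as MAD, followed the same order, with 3.80 and 3.56 FPKM in WT and 7.21 and 6.19 FPKM in R111A. The groups were again apart, at 1.82-fold between the means, with a log2 fold change of 0.72 (SE 0.15, adjusted p = 0.0035; NCBI gene 17119, chr6:86647044-86669234).

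Mxd3, which is best known from dividing cells, was near 0 in every library, at 0.06 and 0.17 FPKM in WT and 0.00 and 0.13 FPKM in R111A. These values overlap and lie below the filter, and without the filter the log2 fold change was -0.07 (adjusted p = 0.56). Its gene (NCBI gene 17121, chr13:55325170-55329900) overlaps Prelid1 on the opposite strand, which was at 251, 244, 239 and 192 FPKM in WT replicates 1 and 2 and R111A replicates 1 and 2. Mnt, the most broadly expressed repressor, was at 8.24 and 7.27 FPKM in WT and 11.3 and 7.96 FPKM in R111A. The groups overlapped, since R111A replicate 2 lay between the WT libraries. Its log2 fold change was 0.26 (SE 0.18, adjusted p = 0.24), turned to -0.04 (adjusted p = 0.87) after rescaling to TPM, and was 0.49 (adjusted p = 0.016) without R111A replicate 2. Mnt lies at chr11:74830806-74845725 (NCBI gene 17428).

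Mga, which binds MAX within a polycomb complex, was at 11.6 and 10.4 FPKM in WT and 12.0 and 17.8 FPKM in R111A. Both R111A values were above both WT values, but R111A replicate 1 exceeded WT replicate 1 by little. The log2 fold change was 0.38 (SE 0.19, 95% interval -0.05 to 0.81, adjusted p = 0.12) and did not pass the threshold. The value was 0.07 (adjusted p = 0.77) on the TPM scale and 0.11 (adjusted p = 0.4) without R111A replicate 2. It passed after median-of-ratios division (0.51, adjusted p = 0.048) and without R111A replicate 1 (0.65, adjusted p = 0.0057), where the R111A group was replicate 2 alone. Mga (NCBI gene 29808) spans chr2:119872503-119970129.

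Mlx, the MAX-like partner of MondoA, was at 40.7 and 40.3 FPKM in WT and 23.5 and 23.0 FPKM in R111A. The replicates of each group were nearly equal and the groups were well apart. Its log2 fold change was -0.78 (SE 0.13, adjusted p = 0.0012). Mlx (NCBI gene 21428, chr11:101086707-101092207) overlaps Psmc3ip on the opposite strand, which was at 27.8 and 33.0 FPKM in WT and 8.77 and 7.91 FPKM in R111A (log2 fold change -1.75, adjusted p = 3.9e-05). Psmc3ip spans chr11:101092141-101095435, so the spans share only their ends. Reads from the stretch that both genes cover cannot be told apart if strand was not used.

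Tfap4 was at 23.3 and 23.4 FPKM in WT and 11.9 and 9.72 FPKM in R111A. Its level in each R111A library was below that in each WT library, at a ratio of the means of 2.16. The log2 fold change was -1.05 (SE 0.15, adjusted p = 5.3e-04), the lowest among the members and below that of Myc by less than either SE. As for Myc, it was under the 2-fold threshold after median-of-ratios division (-0.92, adjusted p = 0.0012). Tfap4 (NCBI gene 83383) lies at chr16:4544661-4560762.

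FPKM is scaled by gene length, so the levels of the members can be set beside each other. In WT the order of the means was Myc, Max, Mlx, Tfap4, Mga, Mnt, Mxd4, Mxi1, Mxd1 and Mxd3, and no neighbours in that order overlapped in their 2 values. In R111A the order was Myc, Max, Mlx, Mxd4, Mga, Tfap4, Mnt, Mxi1, Mxd1 and Mxd3, with overlap between Mxd4 and Mga, between Tfap4 and Mnt, and between Mnt and Mxi1. Mxd4 was thus the seventh member by level in WT and the fourth in R111A, and Myc was first in both. Myc made up 52.3% and 49.5% of the summed FPKM of all members in WT, and 42.1% and 33.6% in R111A.

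How the libraries are scaled matters here, since the sum of FPKM over all genes was 801475 and 836143 for WT against 1053551 and 1012215 for R111A. Rescaling every library to the same sum (TPM) shifted the median log2 fold change of all genes by -0.30, to -0.42, and division by median-of-ratios factors shifted it by 0.12, to 0.005. The calls shifted with it: at the adjusted p alone, the deposited scale gave 2088 higher and 3152 lower genes and the TPM scale 1335 and 5096. Relative to the median gene of the deposited scale, the log2 fold changes were -0.90 for Myc, -0.28 for Max, -0.93 for Tfap4, -0.66 for Mlx, 0.83 for Mxd1, 1.58 for Mxd4, 0.98 for Mxi1, 0.38 for Mnt and 0.50 for Mga. On the TPM scale itself, Mxd1 (0.44, adjusted p = 0.029), Mxi1 (0.58, adjusted p = 0.0075) and Mxd4 (1.16, adjusted p = 4.0e-05) remained higher in R111A. Myc (-1.35, adjusted p = 2.1e-05), Tfap4 (-1.36, adjusted p = 1.1e-05), Mlx (-1.10, adjusted p = 3.1e-05) and Max (-0.73, adjusted p = 4.5e-04) were lower there.

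**Figure D2:**
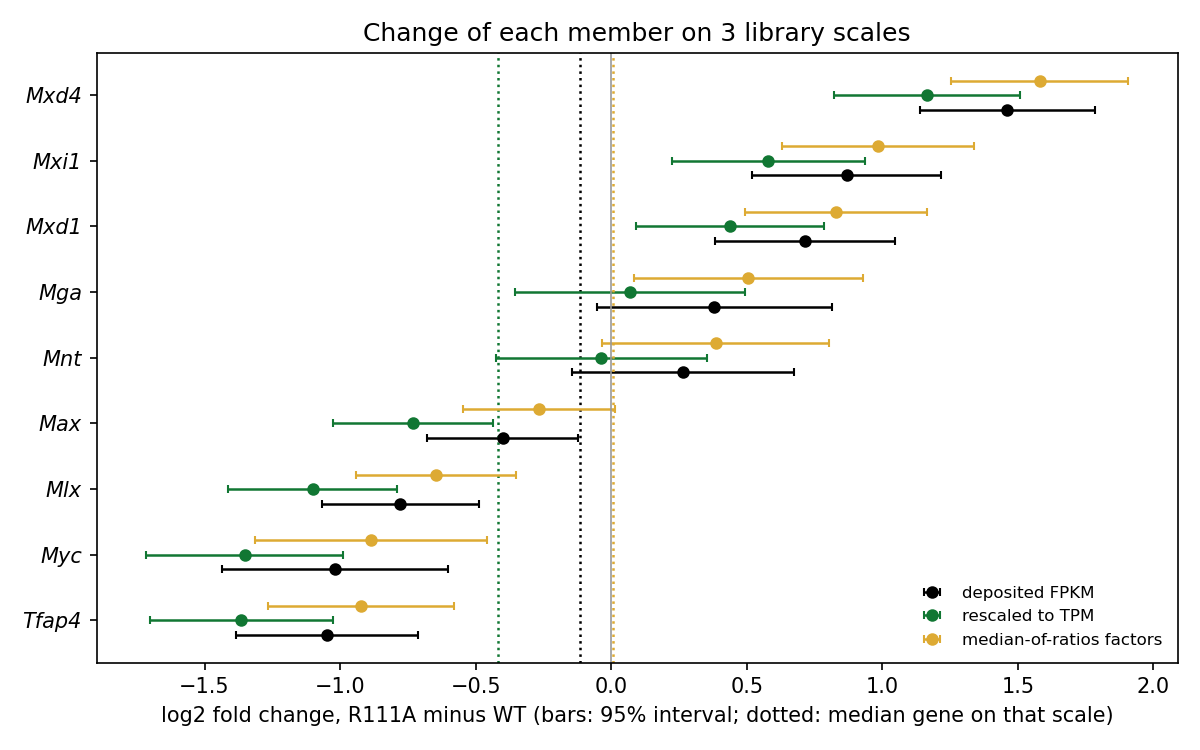
Log2 fold change (R111A minus WT, with 95% interval) of the 9 members tested on the deposited FPKM scale (black), after rescaling to TPM (green) and after median-of-ratios division (yellow), with the median of all genes on each scale as a dotted line. Mxd4, Mxi1 and Mxd1 lie above 0 and Mlx, Myc and Tfap4 below 0 with their whole interval on all 3 scales, whereas the intervals of Mnt, Mga and Max reach 0 on at least 1 scale.

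Dividing a whole library by the same factor, as for TPM or median-of-ratios factors, leaves the ratios between members within it unchanged. Quantile normalization can change such ratios, which were read on the deposited scale only. The summed FPKM of the repressors Mxd1, Mxd4, Mxi1 and Mnt was 21.8 and 19.95 in WT and 44.7 and 36.8 in R111A. Myc exceeded that sum 10.5 and 10.2 times in WT, and 2.86 and 2.38 times in R111A. The groups were far apart on this ratio, with a mean 3.95 times higher in WT, and the replicates of each group were close. Max exceeded the same sum 5.08 and 5.68 times in WT and 1.86 and 2.34 times in R111A. Myc over Max was 2.06 and 1.80 in WT and 1.53 and 1.02 in R111A, so that Myc and Max transcripts were at nearly the same level in R111A replicate 2.

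Within the repressors the shares of the transcripts changed as well. These and the ratios above are of transcripts. Protein levels and dimers were not measured here, so the balance between the proteins is not known from them. Mxd4 made up 23.2% and 24.1% of the sum of Mxd1, Mxd4, Mxi1 and Mnt in WT, and 36.3% and 39.3% in R111A. Mnt was the largest of these 4 in WT, at 37.9% and 36.4%, and was 25.3% and 21.7% in R111A. Mlx over Mlxip was 3.09 and 3.34 in WT and 2.18 and 1.96 in R111A. Tfap4 over Myc did not separate the groups, at 0.102 and 0.115 in WT and 0.0933 and 0.111 in R111A. These ratios were not tested, so no p-value is given for them. An exact two-sided permutation test of 2 against 2 libraries could not go below 0.333.

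**Figure D3:**
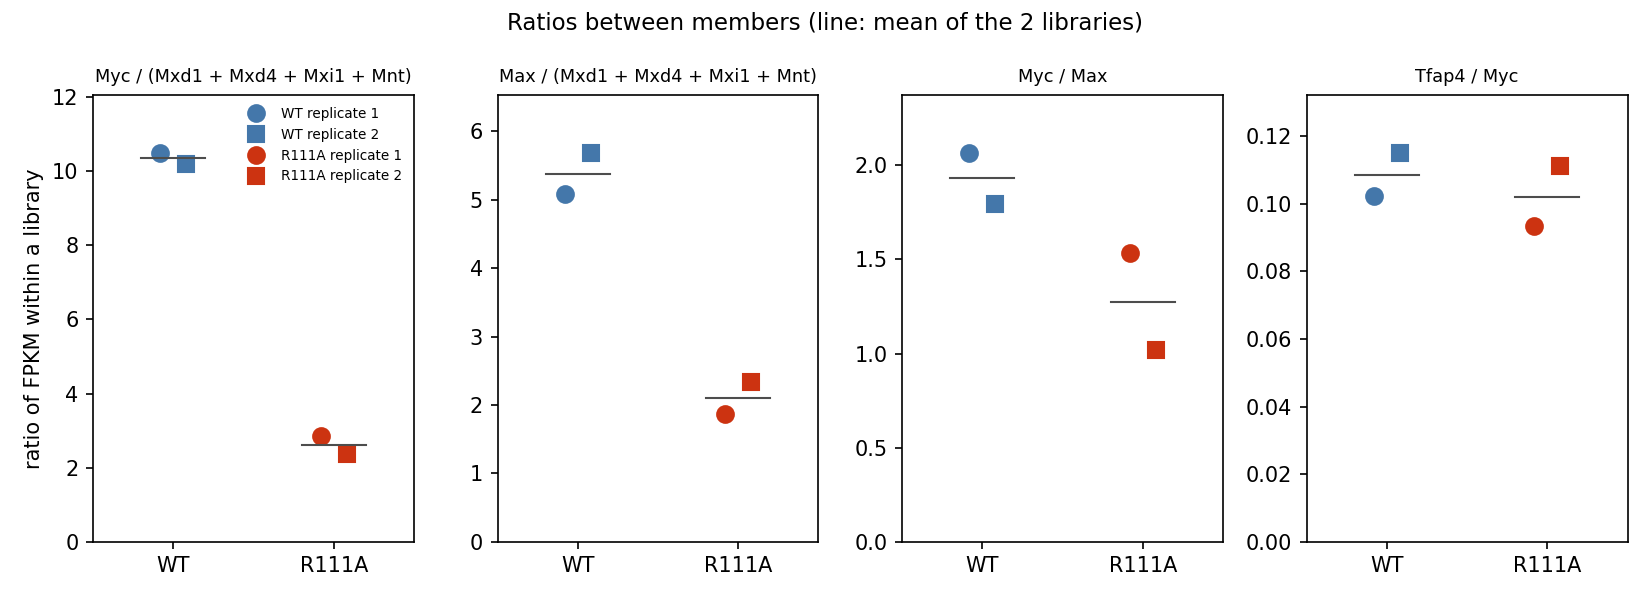
Ratio of FPKM between members in each library, for Myc and for Max over the summed repressors Mxd1, Mxd4, Mxi1 and Mnt, for Myc over Max and for Tfap4 over Myc (WT blue, R111A red, circles replicate 1, squares replicate 2, lines the mean of the 2 libraries). The first 3 ratios are lower in both R111A libraries, and Tfap4 over Myc overlaps.

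The other family genes were few in these cells. Mycn and Mycl, the relatives of Myc, were at or under 0.07 FPKM in every library, and Mlxipl, which encodes ChREBP, at or under 0.13 FPKM. Mlxip, which encodes MondoA, was at 13.2 and 12.1 FPKM in WT and 10.8 and 11.7 FPKM in R111A. Its groups did not overlap but lay close, and its log2 fold change of -0.16 (SE 0.14, adjusted p = 0.37) did not pass the threshold on the deposited scale, while it was -0.46 (adjusted p = 0.022) on the TPM scale.

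The MondoA and MLX dimer is known for 2 arrestin genes. Txnip, which limits glucose uptake, was at 16.0 and 16.2 FPKM in WT and 74.0 and 63.4 FPKM in R111A, with a log2 fold change of 2.02 (SE 0.14, adjusted p = 1.5e-05). Both R111A values were far above both WT values. Arrdc4 was at 1.92 and 1.63 FPKM in WT and 1.56 and 1.62 FPKM in R111A, with a log2 fold change of -0.10 (SE 0.14, adjusted p = 0.58). These are low values, and the group difference was within the spread of the WT pair. Of the 2, Arrdc4 holds a CACGTG in its promoter, 193 bases before the transcript start at chr7:68749414-68749443 (minus strand, no GENCODE exon), and Txnip holds none but has 2 matches of CACGCG.
Arrdc4: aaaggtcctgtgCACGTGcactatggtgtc

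Partners of MYC on chromatin were read as a list of 14 coactivators, all tested. At the adjusted p alone, 6 were lower, 1 was higher and 7 did not pass, where 32.1% of all genes were lower and 21.2% higher. Their median log2 fold change was -0.26, beside -0.12 for all genes. Wdr5, which helps to anchor MYC on chromatin, fell from 53.6 and 53.8 FPKM in WT to 25.6 and 23.6 FPKM in R111A (log2 fold change -1.10, SE 0.13, adjusted p = 2.1e-04). Hcfc1, a MYC-binding host cell factor, fell from 39.8 and 32.1 FPKM to 19.9 and 15.0 FPKM (-1.01, SE 0.18, adjusted p = 0.0016). Both genes had groups that did not overlap. The 1 higher gene, named after its values were seen, was Zbtb17, which encodes MIZ1, the protein through which MYC represses cell cycle inhibitors (28.6 and 30.1 against 51.8 and 44.4 FPKM, log2 fold change 0.69, SE 0.14, adjusted p = 0.0032, and 0.053 without WT replicate 1). The count of coactivators that were lower was 2 without WT replicate 1, 3 without WT replicate 2, 7 without either R111A replicate, 3 after quantile normalization, 4 after median-of-ratios division, 4 without the filter and 9 on the TPM scale.

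The SIN3 and NCOR corepressors, through which the MXD proteins act, had no gene past the 2-fold threshold. Of the 11 genes, all tested, 5 were lower at the adjusted p alone (beside 32.1% of all genes) and 6 did not pass, with a median of -0.33, beside -0.12 for all genes. Those 5 were Hdac1 (-0.51, adjusted p = 0.011), Sin3a (-0.48, adjusted p = 0.037), Rbbp7 (-0.43, adjusted p = 0.019), Rbbp4 (-0.40, adjusted p = 0.028) and Hdac2 (-0.38, adjusted p = 0.049). With limma, the count was 7 without R111A replicate 1, 5 without R111A replicate 2, 0 without WT replicate 1, 0 without WT replicate 2 and 0 after quantile normalization, 1 after median-of-ratios division, 3 without the filter on low values and 9 on the TPM scale.

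The polycomb complex that holds MGA and MAX was read as a list of 9 genes. Of these, all tested, 5 were lower at the adjusted p alone (beside 32.1% of all genes) and 3 of these by 2-fold (beside 8.34%), and 4 did not pass, with a median of -0.61. The 5 became 4 to 7 with a library left out and 7 on the TPM scale. Tfdp1, the DP1 partner of E2F proteins, was at 126 and 130.3 FPKM in WT and 29.3 and 31.7 FPKM in R111A (log2 fold change -2.04, SE 0.13, adjusted p = 1.1e-05). E2f6, the E2F of this complex, was at 25.8 and 29.3 FPKM in WT and 11.2 and 11.9 FPKM in R111A (-1.18, SE 0.14, adjusted p = 2.1e-04). Cbx3, which encodes HP1 gamma, was at 135 and 143 FPKM in WT and 37.1 and 49.97 FPKM in R111A (-1.66, SE 0.16, adjusted p = 7.5e-05). For all 3 the groups were far apart. The annotation names 8 pseudogenes after Cbx3, so its values are uncertain where reads could be split among them.

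Of 12 genes of MYC protein turnover tested, 4 were lower and 1 was higher at the adjusted p alone and 7 did not pass, with a median of -0.20. The share that was lower is near that of all genes (32.1%) and the share that was higher is under it (21.2%), so these counts are no result about the list. Those lower included Skp2 (-0.76, adjusted p = 0.0023, with a ratio of the means of 2.21 at these low levels) and Cul1 (-0.74, adjusted p = 0.0031) of an SCF ubiquitin ligase, and the kinase Aurka (-0.57, adjusted p = 0.016). Usp28, a deubiquitinase that stabilises MYC, was higher, at 5.66 and 5.14 FPKM in WT and 10.3 and 7.23 FPKM in R111A (0.59, adjusted p = 0.022), but not past the threshold on the TPM scale (0.30, adjusted p = 0.15), without the filter (adjusted p = 0.082) or without WT replicate 1 (adjusted p = 0.063) or WT replicate 2 (adjusted p = 0.14). The Aurka call was lost without the filter (adjusted p = 0.056) and without WT replicate 2 (adjusted p = 0.12). Fbxw7, which marks MYC for degradation and was named after its values were seen, was at 8.28 and 7.97 FPKM in WT and 8.09 and 7.72 FPKM in R111A (-0.04, SE 0.14, adjusted p = 0.85, and 0.09 after median-of-ratios division).

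Textbook target genes of MYC were mostly lower where MYC is known to induce and higher where it is known to repress. Both lists were chosen with earlier results of these data known, so the counts describe these genes and are no independent test. Of 36 induced genes tested, 29 were lower at the adjusted p alone (beside 32.1% of all genes), 12 of them by 2-fold (beside 8.34%), 2 were higher (beside 21.2%) and 5 did not pass. The median log2 fold change of the 36 was -0.71, beside -0.12 for all genes. The count of 29 was 25 after median-of-ratios division, 22 after quantile normalization, 24 without the filter, 21 without WT replicate 1, 25 without WT replicate 2, 29 without R111A replicate 1 and 30 without R111A replicate 2. On the TPM scale, where 5096 of the 9831 genes were lower and the median of all genes was -0.42, 33 were lower and 1 higher, with a median of -1.04. Of the 7 repressed genes listed, 6 passed the filter and were tested. Of these, 5 were higher by both thresholds (beside 8.52% of all genes) and 1 (Ndrg2, at 4.86 and 4.56 against 3.82 and 3.50 FPKM) did not pass, with a median of 2.51. On the TPM scale the same 5 were higher, and Ndrg2 was lower (-0.56, adjusted p = 0.0071). Without R111A replicate 1, the log2 fold change of Ndrg2 was -0.34.

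Among the induced genes, Ccnd2, which encodes cyclin D2, was at 291 and 299.98 FPKM in WT and 62.3 and 74.4 FPKM in R111A (log2 fold change -2.10, SE 0.14, adjusted p = 1.2e-05). Tfrc, the transferrin receptor, was at 110.2 and 115 FPKM in WT and 23.1 and 39.0 FPKM in R111A (-1.87, SE 0.22, adjusted p = 2.0e-04). Hk2, a hexokinase, was at 14.2 and 12.7 FPKM in WT and 3.13 and 2.90 FPKM in R111A (-1.84, SE 0.14, adjusted p = 2.7e-05). In each of these genes both R111A libraries were below both WT libraries by more than the spread of either pair. Cdc25a, a phosphatase that promotes entry into S phase, was at 21.5 and 21.0 against 5.92 and 5.54 FPKM (-1.73, SE 0.14, adjusted p = 2.9e-05). Ldha, lactate dehydrogenase, was at 1153 and 1189.8 against 402 and 418 FPKM (-1.51, SE 0.12, adjusted p = 2.9e-05). Hspd1, a mitochondrial chaperone, was at 933 and 799.6 against 287 and 327 FPKM (-1.49, SE 0.14, adjusted p = 6.0e-05). These 3 genes separated the groups as well, and the annotation names 2 pseudogenes after Ldha and 5 after Hspd1, whose reads may be shared.

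The 2 induced genes that were higher, named after their values were seen, were Slc3a2, the heavy chain of an amino acid transporter, at 85.6 and 86.8 FPKM in WT and 201 and 147 FPKM in R111A (0.99, SE 0.16, adjusted p = 0.0012), and Gnl3, which encodes nucleostemin (0.37, SE 0.13, adjusted p = 0.046, and 0.03, adjusted p = 0.84, on the TPM scale). The Gnl3 call was lost as well without WT replicate 1 (adjusted p = 0.29), WT replicate 2 (adjusted p = 0.22) or R111A replicate 2 (adjusted p = 0.055), without the filter (adjusted p = 0.075), and with eBayes without a trend (adjusted p = 0.06) or robust (adjusted p = 0.052). Slc7a5, the light chain that pairs with Slc3a2, was also named after its values were seen, and was lower, at 87.3 and 76.9 FPKM in WT and 66.3 and 45.8 FPKM in R111A (-0.56, SE 0.18, adjusted p = 0.029). That call was lost after median-of-ratios division (adjusted p = 0.085), after quantile normalization (adjusted p = 0.17), without the filter (adjusted p = 0.099), and without WT replicate 1 (adjusted p = 0.17) or R111A replicate 2 (adjusted p = 0.058). The 2 chains were at similar levels in WT, and Slc3a2 was well above Slc7a5 in both R111A libraries.

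Among the repressed genes, Cdkn1a, the cyclin-dependent kinase inhibitor p21, was at 14.3 and 15.5 FPKM in WT and 266 and 207 FPKM in R111A (log2 fold change 3.89, SE 0.15, adjusted p = 2.7e-06). Cdkn1b, the inhibitor p27, was at 6.72 and 8.81 against 50.9 and 38.4 FPKM (2.38, SE 0.18, adjusted p = 2.7e-05). Ndrg1, a stress-responsive gene, was at 5.02 and 5.14 against 45.1 and 33.3 FPKM (2.71, SE 0.17, adjusted p = 1.1e-05). All of these were far higher in both R111A libraries than in either WT library. The stress genes Gadd45b (2.64, SE 0.17, adjusted p = 1.2e-05) and Gadd45a (1.54, SE 0.15, adjusted p = 8.3e-05) were higher too. Such genes respond to many other signals than MYC, and the part of MYC in their levels was not tested.

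**Figure D4:**
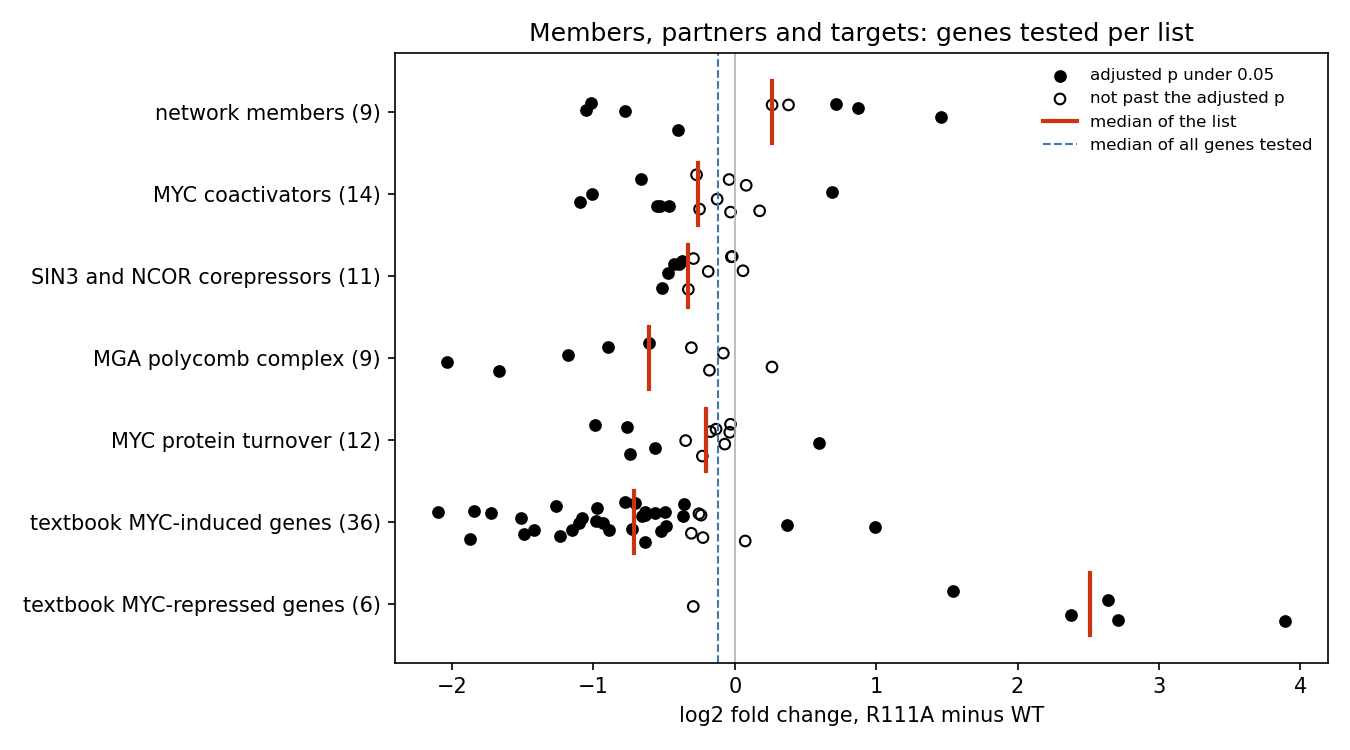
Log2 fold change (R111A minus WT) of each gene tested in 7 lists, with filled points past an adjusted p of 0.05, open points not past it, the median of each list as a red bar and the median of all genes tested (-0.12) as a dashed line; the vertical scatter of points has no meaning. The MYC-induced genes lie mostly below 0 with a median of -0.71, and 5 of the 6 MYC-repressed genes lie above 1.5.

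Whether the E-box itself went with the change was read over all genes with a promoter entry. The 1003 tested genes with a CACGTG had a median log2 fold change of -0.15, with 35.1% lower and 20.6% higher at the adjusted p alone. For the 7038 without it the median was -0.12, with 31.7% lower and 21% higher. The groups of genes thus differed little. Of the MYC-induced genes, 7 of 29 with an entry (24.1%) held the motif. Among the members that hold it, Max and Mlx were lower, Mxd4 was higher and Mnt did not pass, so presence of the motif did not go with 1 direction.

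The genes whose pattern over the 4 libraries was most like that of Myc, by Euclidean distance between centred log2(FPKM + 1) values among 7647 genes of 5 FPKM or more on average, were Pelp1 (0.05), Irf2bpl (0.08), Sf3a1 (0.10), Fermt3 (0.10) and Mapre2 (0.10). Pelp1 was at 31.6 and 28.9 FPKM in WT and 18.2 and 12.1 FPKM in R111A, with R111A replicate 2 lowest, as in Myc. For Mxd4 the nearest were Igf2r (0.08), Tmem265 (0.10), Cxcr3 (0.11), Bet1l (0.11) and Gmfg (0.13). Igf2r was at 10.2 and 9.05 FPKM in WT and 29.2 and 25.7 FPKM in R111A. With 4 libraries in 2 groups, such likeness mainly reflects the difference between the groups.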

How the data were processed

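Expression values were the authors' own RSEM 1.2.28 estimates, which rest on trimmed reads and the mm10 build, with Bowtie2 2.4.4 as aligner. The deposited table gives FPKM values of 16142 genes, and 0 columns of other samples were left out. FPKM values are not counts, and how many reads each rests on is not known. Steps between low values put the depth of WT replicate 1 at 1, 1.06 and 1.19 times that of WT replicate 2 and R111A replicates 1 and 2, from 972, 667 and 614 genes, with weak peaks. The authors called differential expression with DESeq2 on counts, which was not repeated here.

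The test was limma 3.58.1 under R 4.3.3 (lmFit, then eBayes with trend, two-sided) on log2(FPKM + 1), adjusted by Benjamini-Hochberg over the 9831 genes that averaged 1 FPKM or more. Genes were called at an adjusted p under 0.05, alone or with a 2-fold change. The procedure was tested on simulated data. The members and lists were chosen with earlier results of these data known. The lists were other MYC and MLX family genes, coactivators, SIN3 and NCOR corepressors, the MGA polycomb complex, MYC protein turnover, MYC-induced genes, MYC-repressed genes, MondoA and MLX targets, and markers of 7 cell types. Named were every member, Zc3h12a, the family genes, Txnip and Arrdc4, and in each other list up to 6 genes with the largest absolute log2 fold change past both thresholds, or past the adjusted p alone where under 2 passed both. For Myc and the member with the largest change, the 5 nearest genes were named. Other genes named were markers, genes that overlap a member and those said to be chosen after their values were seen. 1 gene that the rule names is not reported here. Coordinates and promoters were taken from RefSeq (GRCm38.p6, matched by NCBI gene ID) and exons from GENCODE vM21. Other steps used python 3.11.15, numpy 2.4.6, pandas 2.3.3 and matplotlib 3.10.9.

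The 14 alternatives were a pseudocount of 0.1 or of 5 FPKM, a filter at 5 FPKM or none, rescaling to TPM, median-of-ratios factors, quantile normalization, eBayes without a trend or robust, the replicate number as a block, and leaving out each of the 4 libraries. Without 1 library, limma pools the spread, and the lone library of a group is assumed to vary like the other group.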

Additional observations from a re-analysis of the deposited data

How the results depend on the processing

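Over 14 alternatives, the 9 members gave 126 further values, of which 118 kept the direction and the side of the threshold. Mxd4 ranged from 1.03 to 1.62, Mxi1 from 0.56 to 1.00, Mxd1 from 0.43 to 0.84, Myc from -1.35 to -0.75, Tfap4 from -1.36 to -0.85 and Mlx from -1.10 to -0.65, all past the adjusted p throughout. Mnt was -0.04 on the TPM scale (reversed) and 0.04 to 0.49 with a library left out. Mga was 0.51 with median-of-ratios factors and 0.11 to 0.65 with a library left out. Max was -0.27 with median-of-ratios factors, -0.17 after quantile normalization and -0.42 to -0.38 with a library left out. The causes were not tested. A further 38 named genes gave 528 values, of which 478 kept both, 45 lost the call, 3 gained it and 2 reversed (Fbxw7, 0.09 with median-of-ratios factors and 0.02 after quantile normalization, not called in either).

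The count of members lower by both thresholds (2) was 0 with a pseudocount of 5 FPKM, median-of-ratios factors or quantile normalization, and 0 to 2 with a library left out. Genes higher by both thresholds numbered 386 with a pseudocount of 5 FPKM and 521 with a filter at 5 FPKM, where fewer genes were tested, and genes lower by both numbered 402 with that pseudocount and 1720 on the TPM scale. At the adjusted p alone, 1335 genes were higher and 5096 lower on the TPM scale, and 1937 to 3790 were lower with a library left out. Coactivators that were lower numbered 3 after quantile normalization and 2 to 7 with a library left out. Corepressors that were lower numbered 3 with no filter, 9 on the TPM scale, 1 with median-of-ratios factors, 0 after quantile normalization and 0 to 7 with a library left out, and turnover genes 2 with a filter at 5 FPKM and 9 on the TPM scale.

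The replicate numbers are only names: deviations of same-numbered libraries correlated at r = 0.111 over 9831 genes, with 2 pairs. With the replicate number as a block, 841 genes were higher and 821 lower by both thresholds, 2236 and 3358 at the adjusted p alone, and no call of a member changed.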
